A study of Mus musculus with 12 samples.

Results

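The transcriptome of undifferentiated C2C12 cells is described here by level: which genes were counted, how high, and at what rank. C2C12 is an established, clonal mouse myoblast line, so every library comes from descendants of 1 cell and not from a population of muscle stem cells. The 3 RNA-seq libraries of undifferentiated control C2C12 cells were used, out of 12 samples in the series. All 3 carry the same cell line and the same treatment label, no transgene or agent is named for them, and no contrast with another group was made. The other samples of the study are C2C12 cells after 7 days of differentiation into myotubes, and small RNA from E14TG2a embryonic stem cells before and after retinoic acid. No label says that the 3 libraries came from separate cultures, so the spread between them may be technical.

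Myoblasts are dividing precursors that can leave the cell cycle and fuse into muscle fibres. Myod1 and Myf5 are basic helix-loop-helix (bHLH) transcription factors that commit a cell to the muscle lineage, and they act as pairs with E proteins such as the product of Tcf3. Id proteins bind E proteins without binding DNA and so keep the muscle factors from pairing, while myogenin (Myog) and the contractile proteins of the sarcomere are known from the later, differentiating stage.

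Levels are given in TPM, a measure normalised for gene length and library size. The deposited count of each gene was divided by its deposited length, and the quotients of each library were scaled to a sum of 1000000. The libraries held 54083215, 38640616 and 22200097 counts for replicates 1, 2 and 3. A gene of the median length of expressed protein-coding genes reached 1 TPM with 111, 57.2 and 30.97 counts, and 3 counts of such a gene, the limit that a count of 0 allows, correspond to 0.0271, 0.0525 and 0.0969 TPM. These limits cover counting error only. Ranks are given among the 21421 genes that RefSeq lists as protein-coding, 1 being the highest.

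Replicate 1 stood apart in its composition before any gene was considered. Protein-coding genes held 54.02% of its TPM, against 79.5% in replicate 2 and 75.9% in replicate 3. Genes shorter than 200 bases held 30.3%, 6.502% and 5.634%, although they took only 0.921%, 0.161% and 0.128% of the counts. Most of this came from 1 predicted gene of 57 bases, Gm23935, at 245554, 42675 and 38018 TPM. Rn7sk, the small nuclear RNA that restrains the elongation factor P-TEFb, stood at 52592, 44440 and 26470 TPM and was second by mean TPM. CT010467.1, a gene without a RefSeq match, had 2181, 9016 and 56959 TPM, so replicate 3 was the high library there. A TPM of a coding gene is therefore lower in replicate 1 for the same rank, and levels are set beside ranks for this reason. Where the libraries are compared with each other, coding TPM is used, in which protein-coding genes alone are scaled to that sum. This scale was added after the values were seen.

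**Figure D1:**
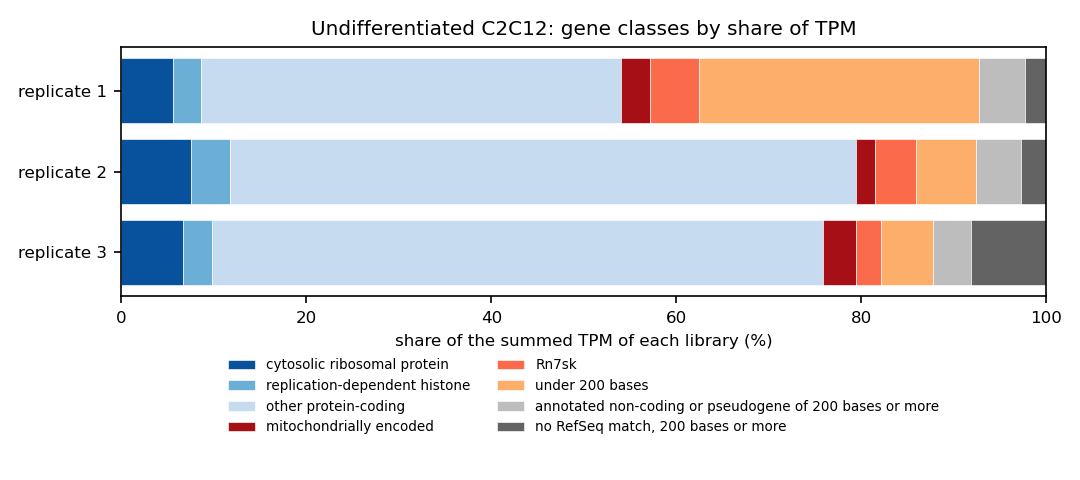
Share of the summed TPM (horizontal axis, %) held by 8 gene classes in each of the 3 undifferentiated C2C12 libraries (bars). Genes shorter than 200 bases that were not placed in another class take 30.3% of replicate 1 and 6.47% and 5.60% of replicates 2 and 3, and the coding classes (blue) are narrower in replicate 1.

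A total of 12929 genes reached 1 TPM in all 3 libraries, which is 23.3% of the 55385 genes in the table. Of these, 10735 were protein-coding, so 50.1% of all protein-coding genes were expressed by this measure, with 849 pseudogenes and 282 long non-coding RNAs beside them. Each count of expressed members of a coding gene list or family below is to be read against this 50.1%. No count in any library was recorded for 28245 genes, among them 5900 protein-coding ones. By mean coding TPM, 117 protein-coding genes stood at 1000 or more and held 26.4% of the coding total. Another 1848 genes lay between 100 and 1000 and held 45.3%, and 6907 genes between 10 and 100 held 27.1%. The 2542 genes between 1 and 10 together held 1.19%. The highest 574, 595 and 612 coding genes of replicates 1, 2 and 3 reached as much coding TPM as all the other coding genes combined. Over the 11414 coding genes with a mean coding TPM of at least 1, Spearman's rho across genes was 0.978 between replicates 1 and 2, 0.964 between 1 and 3 and 0.983 between 2 and 3. These values are across genes of the same 3 libraries, and genes are not independent replicates. Over all genes with at least 10 counts in both libraries, coding or not, the counts of each pair differed by more than counting noise. The chi-square per degree of freedom ran from 126 to 285, and it includes the non-coding genes whose share differed most.

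The label was checked first on its defining genes, and both were present. Myod1 (chromosome 7, 46376474 to 46379092 in GRCm38.p6) had 2144, 3973 and 1821 counts, or 47.4, 170.3 and 144 TPM, a mean of 120.5 ± 64.7 (SD, n = 3). It ranked 2218, 832 and 980 among coding genes. Myf5 (chromosome 10, 107482908 to 107486927) had 27.1, 79.1 and 58.7 TPM, a mean of 54.96 ± 26.2 (SD, n = 3), at ranks 3913, 2002 and 2661. Replicate 1 was the lowest for both, by rank as well as by TPM, and Myod1 exceeded Myf5 in each library. On the scale of coding TPM the gap narrowed but remained, with 87.7, 214 and 189.9 for Myod1. Without replicate 1, the means were 157 TPM for Myod1 and 68.9 TPM for Myf5.

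Other genes of the muscle lineage were also high. Desmin (Des), the intermediate filament of muscle, stood at 234.5, 489 and 489 TPM. Cdh15, the M-cadherin of satellite cells and myoblasts, had 124, 227 and 254.5 TPM, and Itga7, the muscle laminin receptor subunit, had 77.8, 128.7 and 156 TPM. In coding TPM, replicate 1 was also the lowest for each, with 434, 616 and 644 for Des, 229.5, 286 and 335.5 for Cdh15 and 144, 162 and 206 for Itga7.

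Of 18 myogenic regulators listed for this work, 13 reached 1 TPM in all libraries, where 50.1% of all protein-coding genes did. Lbh, a transcriptional cofactor, followed Myod1 with 94.0 ± 39.7 TPM and was above it in replicate 1, so the order of this pair differed between libraries. Six4, a homeodomain factor, stood at 23.1 ± 5.14 TPM. The Eya genes, coactivators of homeodomain proteins, were unequal: Eya3 had 36.2 ± 5.42 TPM, Eya4 19.3 ± 5.52 and Eya1 12.2 ± 3.15, while Eya2 had 0.310 ± 0.0954.

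The Mef2 factors, which act with the bHLH factors on muscle promoters, divided in the same way. Mef2a stood at 22.2 ± 8.06 TPM and Mef2d at 19.5 ± 3.07 TPM. Mef2c reached 0.243, 0.376 and 0.403 TPM, and Mef2b had 6 counts in replicate 1 and none in the others. The ranges of Mef2a and Mef2c lay far apart in every library.

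Myog, the bHLH factor of differentiation, was not silent. It had 4.65, 22.1 and 20.4 TPM, at coding ranks 9261, 5987 and 6054, and was below Myod1 and Myf5 in each library. In bulk RNA, fewer cells that express a gene and less of its RNA per cell cannot be told apart. Pax7, the paired-box factor of satellite cells, had 2.17, 13.9 and 12.01 TPM, again lowest in replicate 1. Its paralogue Pax3 had 1, 1 and 2 counts, which is below the limit of 3 counts per library. Myf6, the fourth muscle bHLH factor, had 6, 16 and 6 counts, or 0.635 ± 0.411 TPM, although it lies next to Myf5 on chromosome 10 (107492848 to 107494723). Sox8 had 3.65 ± 2.03 TPM.

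**Figure D2:**
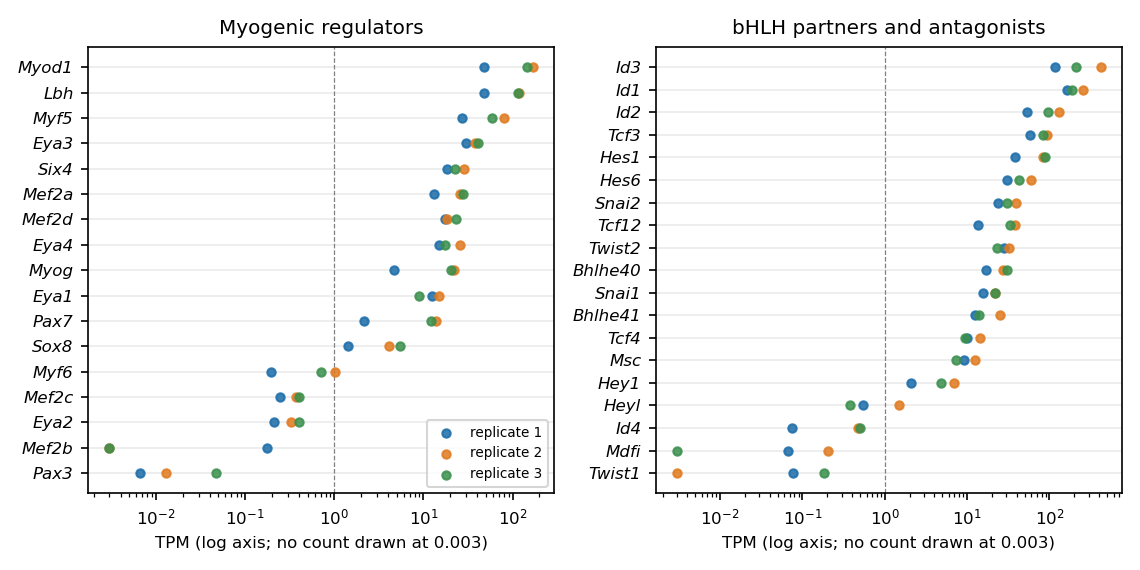
TPM (log axis) of 17 myogenic regulators (left) and of the bHLH partners and antagonists (right), 1 point per library, with the dashed line at 1 TPM and genes without a count drawn at 0.003. Myod1, Lbh and Myf5 lead the left panel and Id3 and Id1 the right one. Replicate 1 is the lowest in TPM for most genes above 10 TPM, but coding genes also hold the smallest share of TPM there. In coding TPM, Myod1, Lbh, Myf5 and Id3 remain lowest in replicate 1, whereas Eya3, Six4, Id1, Snai2 and others are lowest in another library.

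Antagonists of the muscle factors were abundant beside the factors themselves. Id3 had 117, 420 and 208 TPM, Id1 165, 255 and 190.1 TPM, and Id2 53.6, 128.8 and 96.0 TPM. Id1 and Id3 were above Myod1 in all 3 libraries. Id4 had 0.349 ± 0.238 TPM. Among the E proteins, the partners of Myod1, Tcf3 stood at 78.3 ± 18.01 TPM, Tcf12 at 28.2 ± 13.03 and Tcf4 at 11.2 ± 2.58. Hes1, a repressor driven by Notch signalling, had 70.2 ± 27.95 TPM and Hes6, its relative that opposes it, 44.3 ± 14.6.

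Among the remaining bHLH and Snail repressors, the close pair Twist1 and Twist2 stood far apart. Twist2 had 27.9, 32.7 and 22.8 TPM, whereas Twist1 had 3, 0 and 2 counts. Snai2 stood at 31.2 ± 7.63 TPM, Bhlhe40 at 24.9 ± 7.25, Snai1 at 19.7 ± 3.58 and Bhlhe41 at 17.1 ± 6.76. Musculin (Msc) had 9.76 ± 2.65 TPM and Hey1 4.60 ± 2.43. Heyl and Mdfi stayed below 1 TPM on average, at 0.803 ± 0.606 and 0.0909 ± 0.105.

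The highest coding ranks belonged to the cytoskeleton, a galectin and the translation machinery. Actb, cytoplasmic beta-actin, had 8830, 12438 and 15738 TPM at ranks 2, 2 and 1. Lgals1, a secreted lectin that binds galactosides, had 10648, 13077 and 11332 TPM at ranks 1, 1 and 2. Eef1a1, the elongation factor that brings aminoacyl-tRNA to the ribosome, had 7960, 11417 and 9741 TPM and ranked 3 in every library. These were the first 3 coding genes in all libraries, though Actb and Lgals1 exchanged places in replicate 3.

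Spp1, the secreted matrix phosphoprotein osteopontin, had 2202, 7136 and 5872 TPM, and it ranked 12 in replicate 1 and 4 in the others. Vim, the intermediate filament of mesenchymal cells, had 3060, 4804 and 4920 TPM. Ftl1, the ferritin light chain that stores iron, had 3153 ± 795 TPM, Hsp90ab1, a cytosolic chaperone, 2751 ± 465, and Ptma, the nuclear acidic protein prothymosin alpha, 2503 ± 493. S100a4, a small calcium-binding protein, had 1890 ± 532 TPM, Pkm, the last enzyme of glycolysis, 1797 ± 229, and Tubb5, a beta-tubulin, 1781 ± 392. Together the 100 genes of highest mean TPM, coding or not, held 41.04 ± 11.1% of the total (SD, n = 3), and this share was 34.8% without replicate 1. Among coding genes, 75 were in the top 100 of all 3 libraries and 129 in the top 100 of at least 1. Of the top 100 by mean, 29 encoded cytosolic ribosomal proteins, 18 replication-dependent histones, 10 belonged to the non-muscle actomyosin list and 8 to the chaperones.

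All 79 genes of cytosolic ribosomal proteins reached 1 TPM in each library, and 72 of them ranked in the first 1000 coding genes. Their summed level was 6.62 ± 0.993% of all TPM (SD, n = 3), and 10.4%, 9.53% and 8.82% of coding TPM. Rplp1 and Rplp0, proteins of the stalk that recruits elongation factors, led with 4486 ± 721 and 3348 ± 589 TPM. Rps15 followed with 3034, 3150 and 2855 TPM and Rpl8 with 2667 ± 529 TPM. Translation factors had even shares, with 34 of 35 at 1 TPM and 3.21%, 3.09% and 3.09% of coding TPM. After Eef1a1, Eef2, which moves the ribosome along the message, stood at 2940 ± 399 TPM, Eif5a at 1002 ± 141 and Tpt1 at 966 ± 342. Eef1a2, the paralogue of Eef1a1 known from muscle and neurons, had no count in any library.

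Genes listed for proteins of snoRNA particles and for assembly and nuclear body factors were all expressed, 15 of 15, against 50.1% of all protein-coding genes. Npm1, the nucleolar chaperone nucleophosmin, had 689, 1410 and 1791 TPM. Ncl, nucleolin, stood at 336 ± 83.4 TPM, and Nhp2, a core protein of the box H/ACA particles that carry out pseudouridylation, at 225.8 ± 71.1. Nop56, a core protein of the box C/D particles, stood at 217 ± 57.1. In 12 of the 15 genes replicate 3 had the highest coding TPM, against 31.4% of the 11414 coding genes. Of 150 genes with Snora, Snord or Scarna names, a set chosen after the values were seen, 63 reached 1 TPM in all libraries. The share over all genes in the table was 23.3%. These RNAs are mostly shorter than 200 bases.

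Genes of the cell cycle were expressed throughout. All 38 mitosis genes and all 48 DNA replication genes reached 1 TPM in every library. Cdc20, an activator of the anaphase-promoting complex, had 298, 413 and 330.5 TPM, Top2a, the topoisomerase that untangles chromosomes, 296.5 ± 56.1, and Ccna2, cyclin A, 272 ± 70.2. Smc4, a condensin subunit, stood at 244 ± 84.95 TPM. Among replication genes Rrm2, the small subunit of ribonucleotide reductase, led with 382, 670 and 678 TPM, followed by Pcna, the sliding clamp, at 272 ± 48.9, Mcm4 at 215 ± 30.02 and Mcm3 at 190.0 ± 13.9. Their shares of coding TPM varied little, 0.711%, 0.714% and 0.665% for mitosis and 0.621%, 0.600% and 0.604% for replication.

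Replication-dependent histones, whose messages end in a stem-loop instead of a poly(A) tail, were counted in these total RNA libraries. Of 56 such genes, a family picked by symbol after the levels were seen, 52 reached 1 TPM in all libraries. They held 5.59%, 5.20% and 4.13% of coding TPM. H4c8 had 1910, 2577 and 1878 TPM, H4c12 1819 ± 504 TPM, H1f5 1711 ± 284 TPM and H2ac15 1646 ± 148 TPM. These genes are short and near-identical in sequence, so the division of reads between copies is uncertain. Among replacement histones and chromatin proteins, 16 of 16 were expressed, led by H3f3b at 671 ± 168 TPM, H2az1 at 443 ± 125, H2ax at 353 ± 84.4 and Hmgn1 at 346.5 ± 109.

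Regulators of the G1 phase were led by Ccnd1, cyclin D1, with 368, 400.5 and 449.9 TPM, and by its kinase Cdk4, with 305.5, 425 and 382 TPM. The other D cyclins were lower, Ccnd3 at 32.7 ± 7.13 TPM and Ccnd2 at 18.1 ± 5.64, and so were Cdk6 at 53.01 ± 19.96 and Cdk2 at 31.5 ± 3.57. Ccnd1 stood above Ccnd3 and Ccnd2 in every library. Myc had 49.9, 46.2 and 92.2 TPM, while Mycn had no more than 0.134 TPM.

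Inhibitors of the cyclin-dependent kinases were present apart from 1 locus. Cdkn2c had 57.2 ± 18.6 TPM, Cdkn1a, the p21 protein, 54.2 ± 10.5, Cdkn2d 52.1 ± 18.3 and Cdkn1b, the p27 protein, 40.7 ± 10.6. Cdkn1c, the p57 protein, stood at 4.35 ± 1.96 TPM. Cdkn2a had 4, 0 and 0 counts and its neighbour Cdkn2b none. Mtap, the gene next to them and named here after its values were seen, had 185, 288 and 283 TPM.

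The pocket proteins and E2F factors that these kinases act on were all expressed. Rb1 had 19.5 ± 8.47 TPM, Rbl1 37.2 ± 5.49 and Rbl2 25.6 ± 6.504. E2f4 stood at 50.0 ± 8.50 TPM, E2f1 at 26.02 ± 1.17, E2f3 at 23.3 ± 9.21 and E2f2 at 22.4 ± 4.82. Trp53 had 58.8 ± 12.2 TPM and Mdm2, the ligase that degrades its product, 80.1 ± 22.3.

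The non-muscle actomyosin list, 45 genes of the actin cytoskeleton, held the largest sum after the ribosomal proteins among the lists. All but 1 reached 1 TPM in each library, and together they held 3.88%, 3.998% and 5.69% of coding TPM. Some of them, such as Acta2, Tagln, Cnn1 and Actg2, are also known from smooth muscle. By mean TPM Acta2, the actin of smooth muscle, came behind Actb, with 699, 1396 and 3995 TPM at ranks 76, 46 and 7. Actg1, cytoplasmic gamma-actin, had 1109, 1708 and 2057 TPM, so Acta2 was above it in replicate 3 only, and Tmsb4x, which holds actin monomers, 568, 1650 and 2161 TPM. For all of these replicate 3 was the highest library, and 33 of the 44 genes with a mean coding TPM of at least 1 had their highest coding TPM there, against 31.4% of all 11414 such coding genes. Among intermediate filaments and tubulins, 19 of 25 were expressed, and after Vim and Tubb5 came Tuba1a at 977 ± 100.1 TPM and Lmna, lamin A/C, at 899 ± 217.

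Genes of the sarcomere, the contractile unit of differentiated muscle, were mostly low in TPM. Of 49 listed, 19 reached 1 TPM in all libraries, where 50.1% of all protein-coding genes did. The median gene had 0.969 TPM at rank 11124 of the 21421 coding genes, so the list as a whole was not far below coding genes at large. It held 0.0610%, 0.0879% and 0.103% of coding TPM. Des accounted for most of this sum. Acta1, the actin of skeletal muscle, had 6.64, 26.3 and 75.4 TPM, Actn3, an alpha-actinin of fast fibres, 30.8, 41.4 and 27.8 TPM, and Mylpf, a fast regulatory light chain, 5.69, 25.5 and 38.8 TPM. Myl2, Myl3 and Myot had no count. In 21 of the 27 sarcomere genes with a mean coding TPM of at least 1, replicate 3 was the highest, and replicate 1 was the highest in 3, against 31.4% and 43.1% of all such coding genes.

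**Figure D3:**
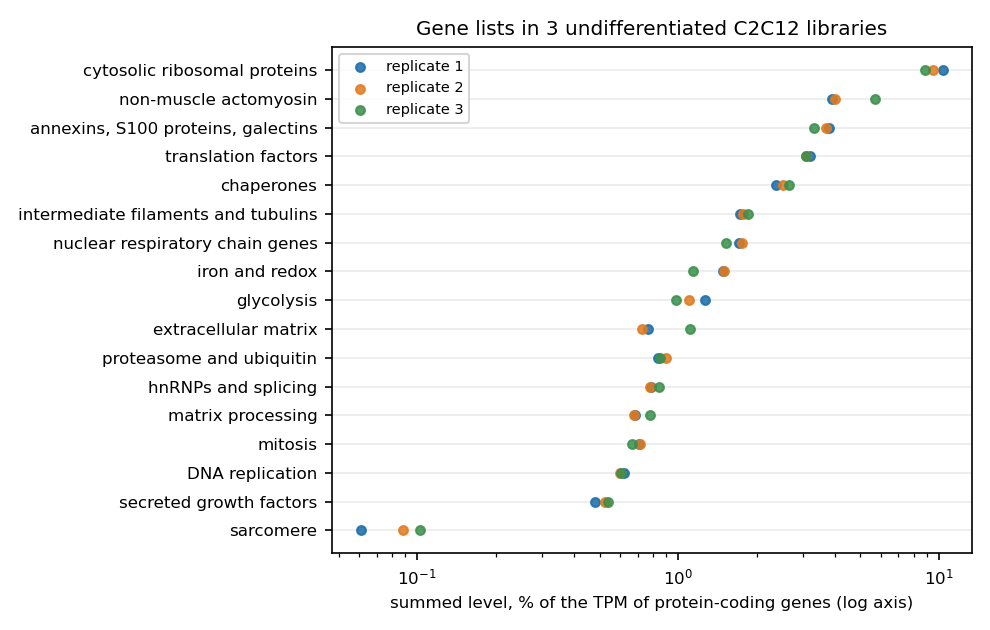
Summed level of 17 gene lists as a percentage of the TPM of protein-coding genes (log axis), 1 point per undifferentiated C2C12 library. Ribosomal proteins lead at 8.82% to 10.4% and the sarcomere list is last at 0.0610% to 0.103%; replicate 3 is the highest library for non-muscle actomyosin, extracellular matrix and sarcomere genes.

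Related isoforms were set side by side for 22 pairs, in most of which the second-named form is known from muscle. Gys1 and Gys2, Ptbp1 and Ptbp2, Aldoa and Aldoc, and Tnnt2 and Tnnt3 do not set a general form against a muscle form. The first-named form was higher in all 3 libraries in 20 pairs. For Actb over Acta1 the ratio of TPM was 1330, 474 and 209, and for Myh9 over the embryonic myosin Myh3 545, 106 and 120.5. Ckb, the general creatine kinase, had 24.8, 39.1 and 32.5 TPM against 0.155, 0.684 and 1.62 TPM for Ckm. Enolase ran the other way by TPM. Eno3, the form known from muscle, had 645, 922 and 789 TPM and Eno1 536, 628 and 607 TPM, so Eno3 was higher in each library. This order came with the division by length. Eno1 had 70112, 42362 and 22190 counts over 5379 bases, and Eno3 27277, 20098 and 9324 over 1739. The position of Eno3 also overlaps that of Pfn1 on chromosome 11, which adds uncertainty to its counts. Phosphofructokinase was mixed, with Pfkm at 35.5, 46.03 and 23.6 TPM and Pfkp at 19.1, 28.3 and 23.98 TPM. By counts, not divided by length, Pfkp was above Pfkm in each library. Tpm4 exceeded Tpm2 by only 3.33, 4.11 and 3.53 times. Gys2, the liver glycogen synthase, had no count, while Gys1 had 26.9, 25.96 and 24.2 TPM.

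Genes of proteins that act in fusion were expressed unevenly. The general ones were high, Cdc42 at 492.5 ± 174 TPM, Cd9 at 390.2 ± 125, Cd81 at 263 ± 72.2 and Rac1 at 247.5 ± 71.6. Mymk and Mymx, the muscle-specific fusogens, had 1.36, 4.12 and 5.16 TPM and 0.280, 1.01 and 1.72 TPM; they were named here after their values were seen. Nphs1 and Adgrb3 had no count. At the satellite cell surface Itgb1, the shared integrin subunit, led with 380, 736 and 1055 TPM, followed by Tnfrsf12a, the receptor of the cytokine TWEAK, at 433 ± 159 and the proteoglycan Sdc4 at 390 ± 121. Calcr, the calcitonin receptor of quiescent satellite cells, and Chodl had no count.

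The matrix and its processing were strongly represented. Of 43 extracellular matrix genes found, 35 reached 1 TPM in all libraries, against 50.1% of all protein-coding genes. Sparc, a collagen-binding glycoprotein, had 632.5, 920 and 884 TPM, Thbs1 521, 588 and 1012, and Fn1, fibronectin, 301, 347 and 836.5. Nid1, a basement membrane linker, stood at 397 ± 198 TPM. In 27 of 36 matrix genes with a mean coding TPM of at least 1, replicate 3 was the highest, against 31.4% of all such coding genes. Eln and Fbn2, components of elastic fibres, had no count. Among processing genes P4hb, a subunit of prolyl hydroxylase, had 1143 ± 149 TPM, the collagen chaperone Serpinh1 979 ± 131, and the inhibitors of metalloproteinases Timp1 350.3, 687 and 1092 and Timp2 338 ± 114, while Mmp3 had no count.

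Secreted growth factors and their binding proteins were led by Igfbp2, which binds insulin-like growth factors, at 588, 871 and 840.5 TPM. Grem1, an antagonist of BMP ligands, had 205, 617 and 639 TPM, Prl2c3, a proliferin, 151, 477 and 512, and Igfbp6 349.7 ± 65.2. The main ligand of this system was nearly absent: Igf2 had 2, 3 and 1 counts, and H19, the non-coding RNA transcribed beside it, had 402, 1242 and 932 TPM. Myostatin (Mstn), an inhibitor of muscle growth, had no count. On the receiving side, 31 of 35 receptors were expressed, with Axl at 323 ± 98.2 TPM, Met, the HGF receptor, at 104 ± 25.97, Bmpr1a at 80.1 ± 24.4 and Pdgfrb at 101.6, 79.3 and 48.2.

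Most listed genes of metabolism and protein care were expressed, against 50.1% of all protein-coding genes. Of 23 glycolysis genes, 20 were expressed, and Aldoa, Ldha and Eno3 followed Pkm at 978 ± 88.1, 840 ± 115 and 785 ± 138 TPM. Aldoa is listed under 2 identifiers, and the larger is given. Nuclear genes of the respiratory chain were expressed in 52 of 55 cases, led by Atp5b at 1275 ± 270.3, Atp5a1 at 774 ± 150.2, Cox8a at 552 ± 86.2 and Cox6a1 at 527.5 ± 52.2 TPM. Iron and redox genes were expressed 21 of 21, with Txn1, thioredoxin, at 1354 ± 333 TPM, Fth1 at 888 ± 204 and the metallothionein Mt1 at 653, 599 and 273.5. All 30 proteasome and ubiquitin genes were expressed, among them Psmd2 at 392 ± 84.4, Ubb at 353 ± 82.1, Psmc3 at 335 ± 48.6 and Psmb2 at 324 ± 30.9 TPM. Annexins, S100 proteins and galectins were expressed in 28 of 29 cases, with S100a10 at 1280 ± 291 and Lgals3 at 1248 ± 271 TPM behind Lgals1 and S100a4. Of 31 splicing genes 29 were expressed, led by Hnrnpab at 739 ± 189, Hnrnpa1 at 734 ± 95.8, Hnrnpk at 372 ± 113 and Srsf2 at 331 ± 63.6 TPM. The small heat shock gene Hspb3 had no count.

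Mitochondrially encoded genes spanned a wide range. mt-Co1, a subunit of cytochrome oxidase, had 9580, 5553 and 7330 TPM, mt-Nd1 2102 ± 490.0 and mt-Cytb 1732 ± 604. In contrast mt-Co2 had 10.2, 5.48 and 8.61 TPM and mt-Co3 10.1, 12.8 and 14.8, and mt-Nd4l had no count, although these messages come from the same precursor. Predicted genes on nuclear chromosomes had counts beside them, such as Gm28437 with 248, 388 and 122 counts. Reads shared with near-identical nuclear copies cannot be assigned with certainty, so the levels of these mitochondrial genes are uncertain.

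Among listed long non-coding RNAs 15 of 20 found were expressed, against 5.67% of all genes that RefSeq classes so. Malat1, a nuclear RNA of splicing speckles, had 2562, 1273 and 1182 TPM and was the highest in replicate 1, where coding genes held the smallest share. H19 came second, and the snoRNA hosts Gas5 and Snhg8 had 92.3 ± 7.78 and 77.1 ± 3.71 TPM. Meg3 and Rian, of the imprinted Dlk1 locus, had no count, and neither had Dlk1 itself, which was named after its values were seen. Of the structural small RNAs, Rny3 and Rny1 had 746 ± 430 and 578 ± 641 TPM and Rn7s2 of the signal recognition particle 528 ± 342. Terc, the telomerase RNA, is listed under 2 identifiers, each without a count.

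Hox genes, which record the position of a cell along the body axis, were expressed from 2 of the 4 clusters. In the HoxA cluster (chromosome 6) 8 of 11 genes reached 1 TPM in all libraries, and in the HoxC cluster (chromosome 15) 9 of 9. The summed level of HoxA was 99.1, 117 and 87.8 TPM and that of HoxC 99.5, 112 and 90.5 TPM. HoxB (chromosome 11) summed to 1.002, 0.737 and 0.631 TPM over 10 genes, and HoxD (chromosome 2) to 1 count of Hoxd13 in replicate 1 over 9 genes. The 12 genes without any count were Hoxb1, Hoxb2, Hoxb7, Hoxb8, Hoxd1, Hoxd3, Hoxd4, Hoxd8, Hoxd9, Hoxd10, Hoxd11 and Hoxd12.

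Within the expressed clusters the highest levels lay toward the posterior end. Hoxa11 had 29.9, 33.4 and 23.4 TPM, Hoxc10 24.7, 34.4 and 26.8, Hoxc11 24.02, 30.6 and 27.5, and Hoxa10 15.8, 26.1 and 18.3. The ranges of these 4 genes overlapped, so no order is given among them. The last genes were lower, Hoxa13 at 1.47 ± 0.441 TPM and Hoxc13 at 7.62 ± 2.61.

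**Figure D4:**
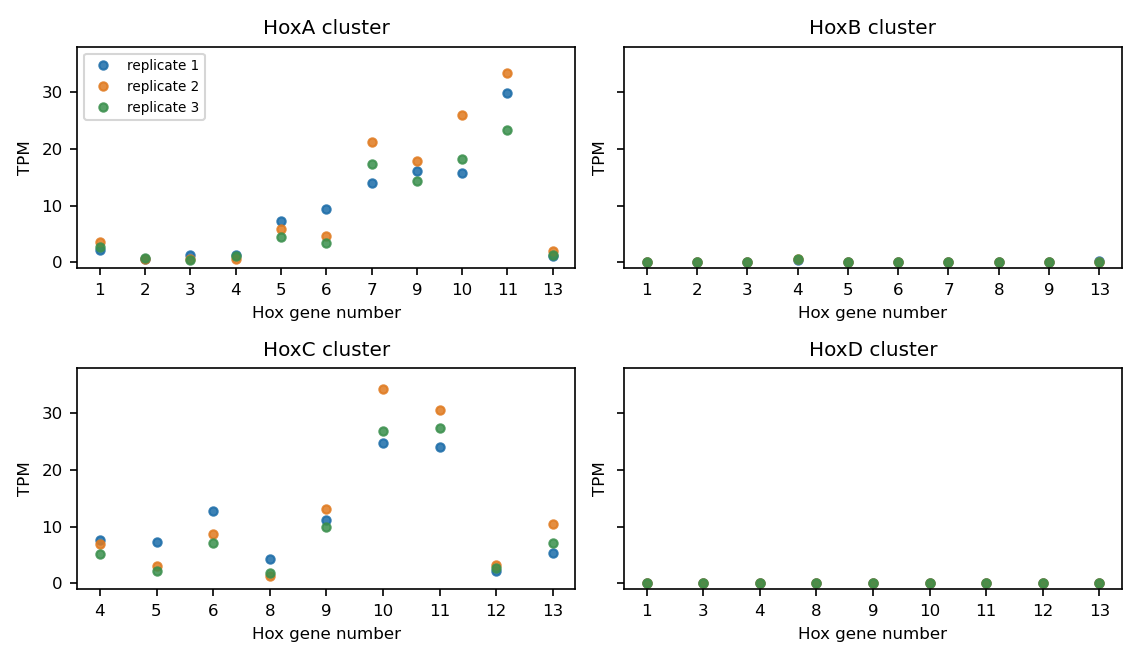
TPM of the Hox genes in 4 panels, 1 per cluster, ordered by gene number, with 1 point per undifferentiated C2C12 library. HoxA and HoxC peak at genes 10 and 11 with means from 20.1 to 28.9 TPM, and all HoxB and HoxD genes lie near 0.

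Markers of other cell types were read as a check on the label, and 50.1% of all protein-coding genes reached 1 TPM in all libraries. Fibroblast genes were partly present, 5 of 14 at 1 TPM, with Gsn at 218, 355.5 and 232.7 TPM, Ly6a at 167, 223 and 114.5, Pdgfrb as above and Osr1 at 3.57 ± 0.959; Thy1, Tcf21 and Dpp4 had no count. Their summed level was 0.0917%, 0.0837% and 0.0528% of coding TPM. Smooth muscle genes were 5 of 8, with Acta2, Tagln, Smtn and Cnn1 in the lead, but Myh11, the smooth muscle myosin, had 0.0249 ± 0.0224 TPM. Their sum was 0.148%, 0.203% and 0.625% of coding TPM, most of it Acta2. The part of other cells in these levels was not tested.

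The remaining types gave fewer genes. Adipocyte genes were 3 of 10, with Pparg at 22.1 ± 2.96 TPM and no count of Adipoq, Lep, Cidec or Cfd. Osteoblast and cartilage genes were 2 of 10, Sox9 at 29.7 ± 14.3 and Runx2 at 10.9 ± 5.71 TPM, and Ibsp had no count. Epithelial genes were 3 of 10, with Krt19 at 52.6 ± 13.6 and Krt14 at 15.6 ± 7.88 TPM, while Esrp1 had no count. Neuron and glia genes were 3 of 14, with Gap43 at 52.9 ± 16.9 and Stmn2 at 33.9 ± 11.2 TPM, and Rbfox3, Snap25, Elavl4 and Sox10 had no count. Endothelial genes were 1 of 10 (Flt1 at 2.76 ± 0.802; Emcn, Cldn5 and Erg without a count) and leukocyte genes 1 of 12 (Cd68 at 5.01 ± 0.416; Cd3e, Itgam, Tyrobp, C1qa and C1qb without one). Pluripotency genes were 2 of 12, Klf4 at 49.5 ± 22.3 and Klf2 at 31 ± 14.8 TPM, both also widely expressed, and Pou5f1, Zfp42, Dppa3, Tdgf1, Lin28a and Fgf4 had no count. Hepatocyte genes were 0 of 8, and Alb, Ttr, Hnf4a, Serpina1a and Fgb had no count.

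The 3 libraries were not equal beyond the composition described above. Differences of more than 2-fold were counted in coding TPM after 1 was added to each value, which damps differences of low genes. Between replicates 1 and 3, 778 of 11414 coding genes (6.82%) differed so, against 338 between 1 and 2 and 233 between 2 and 3. The 10 genes of largest coefficient of variation among those at 10 TPM or more fell into a group high in replicate 3 and a group high in replicate 1. Tagln, an actin-binding protein of smooth muscle, had 88.6, 190.1 and 869 coding TPM. Actg2, the enteric actin, had 78.4, 165 and 590.3, and Ccn2, a matricellular protein induced through YAP and SRF, 62.7, 111 and 434. Cnn1, calponin, had 3.70, 8.47 and 35.7 coding TPM, Serpinb2, an inhibitor of plasminogen activators, 13.8, 46.4 and 138, and Acta1 12.3, 33.1 and 99.4. All 6 were lowest in replicate 1 and highest in replicate 3.

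The opposite group was led by Lars2, the mitochondrial leucyl-tRNA synthetase, with 1898, 32.7 and 59.5 coding TPM. Fgf7, a growth factor of mesenchymal cells, had 122, 20.3 and 7.23 coding TPM, and Lipg, an endothelial lipase, 51.1, 8.32 and 3.62. Gm23935 and the predicted genes Gm15564 (728, 16.9 and 33.9 TPM) and Gm42418 (18115, 4970 and 7986 TPM) were high in the same library as Lars2. So was Mir6236, a microRNA gene of 123 bases, with 29100, 2465 and 3359 TPM. Whether these move together for a shared reason was not tested. Nor was it tested whether the Lars2 counts of replicate 1 come from its own message, so its level there is uncertain. Of the 40 coding genes of largest variation on this scale, 26 were highest in replicate 1 and 12 in replicate 3, where the shares over all 11414 coding genes were 43.1% and 31.4%. Cd34, a sialomucin of satellite and other progenitor cells, was among the first, with 268, 54.7 and 42.4 coding TPM, and the chemokines Cxcl1 (44.2, 14.1 and 4.86) and Ccl2 (167, 41.8 and 29.3) were beside it. These last 3 genes were chosen after their values were seen.

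**Figure D5:**
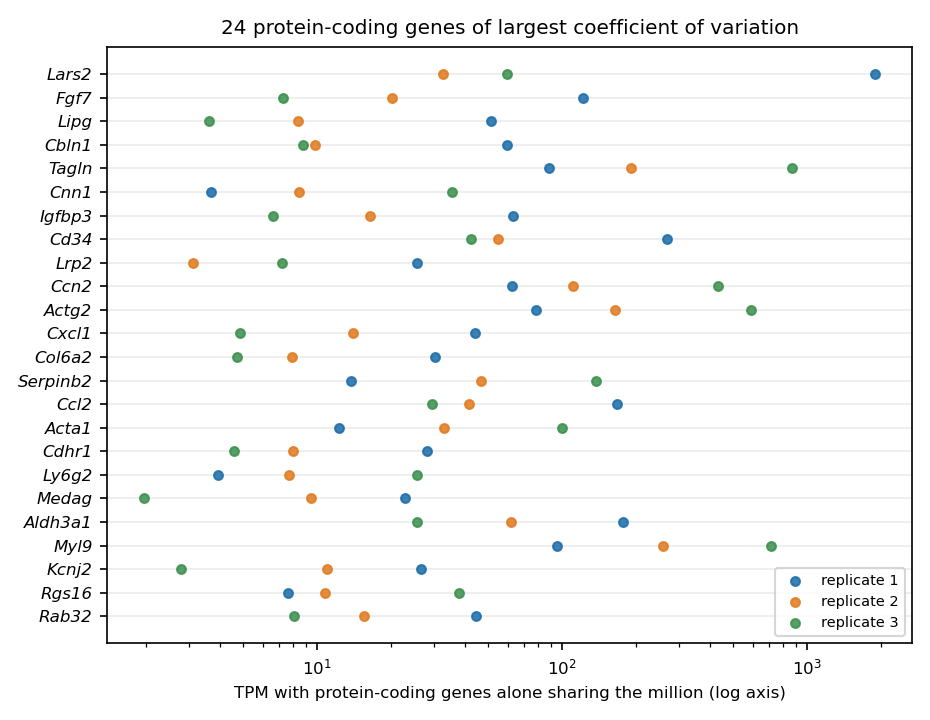
Coding TPM (log axis) of the 24 protein-coding genes of largest coefficient of variation, 1 point per undifferentiated C2C12 library. Tagln, Cnn1, Ccn2, Actg2, Serpinb2, Acta1 and Myl9 are highest in replicate 3, and Lars2, Fgf7, Lipg and Cd34 in replicate 1.

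Several genes of the replicate 3 group are known targets of serum response factor (SRF), which binds the CArG box, a motif of 10 bases. Srf itself had 110.9, 106.6 and 130.9 coding TPM. The CArG box was searched on both strands in RefSeq promoter windows of 250 bases before to 50 after the start, in build GRCm38.p6. Each gene was counted once, as holding a motif if any of its windows did, so genes with more windows had more chances. The box was found in 1.75% of 17046 protein-coding genes with a window. It was in 14.6% of 41 such genes of the non-muscle actomyosin list and 17.9% of 39 of the sarcomere list. Among the 79 ribosomal protein genes it was found in 1 of the 58 with a window. The lists were drawn up with these genes known, so the shares are a description. The 250 bases before the start are shown for 3 actin cytoskeleton genes that contain the box and for Srf, because the box lies in their windows; capitals mark the CArG box. The box begins 73 bases before the start in Acta1 (chr8:123894776-123895025, minus strand), 90 in Actg1 (chr11:120348496-120348745, minus strand) and 161 in Myl9 (chr2:156775214-156775463, plus strand). Srf (chr17:46556163-46556412, minus strand) holds 2 boxes, at 82 and 62 bases.
Acta1: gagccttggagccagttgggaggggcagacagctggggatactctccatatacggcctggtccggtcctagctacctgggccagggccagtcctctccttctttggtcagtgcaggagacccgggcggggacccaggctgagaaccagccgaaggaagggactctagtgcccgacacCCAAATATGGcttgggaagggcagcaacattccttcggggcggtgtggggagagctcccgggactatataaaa
Actg1: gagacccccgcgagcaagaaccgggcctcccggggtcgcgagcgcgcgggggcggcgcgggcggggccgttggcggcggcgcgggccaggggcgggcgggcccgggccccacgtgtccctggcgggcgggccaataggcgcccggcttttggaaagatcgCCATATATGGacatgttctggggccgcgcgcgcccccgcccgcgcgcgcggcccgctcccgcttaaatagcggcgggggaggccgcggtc
Myl9: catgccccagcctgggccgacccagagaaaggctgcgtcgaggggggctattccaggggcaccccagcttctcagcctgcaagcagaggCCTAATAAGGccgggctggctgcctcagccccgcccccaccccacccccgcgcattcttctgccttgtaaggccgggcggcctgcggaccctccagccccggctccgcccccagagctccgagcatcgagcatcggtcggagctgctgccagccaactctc
Srf: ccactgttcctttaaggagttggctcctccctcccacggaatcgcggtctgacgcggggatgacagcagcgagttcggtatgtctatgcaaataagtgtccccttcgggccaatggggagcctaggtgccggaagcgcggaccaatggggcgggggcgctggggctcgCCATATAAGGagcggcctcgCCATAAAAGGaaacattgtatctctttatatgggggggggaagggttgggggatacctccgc

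Acta1 and Myl9 are among the variable genes above, whereas Actg1, with 2053, 2150 and 2712 coding TPM, and Srf varied less. The levels of the genes with these promoters differed by orders of magnitude. Actg1 stood at 1625 ± 480 TPM, Myl9, a regulatory light chain of smooth and non-muscle myosin, at 51.6, 205 and 539.5, and Acta1 at 36.1 ± 35.4. Other genes with a box in the window ran from Myl6 at 679 ± 154 TPM to Myl3 without a count. Of the 10 most variable genes only 5 had a window in the RefSeq table, and of these only Acta1 held the box. Among the 40 coding genes of largest variation, Acta1 and Myl9 were the only ones found with the box. Cnn1 and Acta2, also highest in replicate 3, had a window without it. A link of the box to the difference between libraries was not tested. The TATAAA motif, on either strand, was found in 14.6% of all coding genes with a window. It was in 39.5% of the 43 such genes at 1000 TPM or more and in 25.9% of the 4795 without a count. The E-box CAGCTG, a form bound by Myod1, was in 17.4% of all coding genes with a window, 38.5% of such sarcomere genes and none of 12 myogenic regulators. GGGCGG, on either strand, was in 49.9% of all coding genes with a window. It was in 74.4% of such genes at 1000 TPM or more, 74.8% of those between 100 and 1000 and 73.1% of those between 10 and 100. Among such genes without a count it was in 16.02%. GGGCGG is made of G and C only, and the windows differed in these bases. Their median GC content was 46.3% in genes without a count, 61.7% in genes between 10 and 100 TPM and 55.3% at 1000 TPM or more. A link of either motif to level was not tested. A match is only the presence of these letters in the window.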

How the data were processed

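Total RNA of C2C12 cells was sequenced from libraries made with a stranded kit that removes ribosomal RNA (TruSeq Stranded Total RNA Gold), per the labels' protocols. Per the submitters' processing notes, the tools were STAR 2.5.1b, featureCounts 1.5.1, Salmon 0.12.0, bcl2fastq and DESeq2 1.18.1, with mm10 as the build; their roles are not stated. How strand was handled in counting is not given in the sources used here. Antisense and overlapping genes are therefore uncertain. The deposited table holds raw counts per gene for 55385 Ensembl genes with symbols and lengths, as the authors made it; the normalised table and the small RNA files were not used here.

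The 3 undifferentiated libraries were taken by their titles. TPM was computed from counts and deposited lengths, with all genes sharing the scaling sum of 1000000, and a gene at 1 TPM or more in all 3 libraries is called expressed. Values are means ± SD over 3 libraries. No test between groups was run, since there is no contrast. Gene classes came from RefSeq (GRCm38.p6); 38986 genes matched by symbol and 252 by synonym. Promoter sequences are RefSeq's. Python 3.11.15 with pandas 2.3.3 and numpy 2.4.6 was used, and edgeR 4.0.16 under R 4.3.3 for TMM factors only. The scaling was run on counts simulated from the same levels in all 3 libraries. That run could not show how the scaling handles the unequal composition of the real libraries.

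Named genes are the 25 highest by mean TPM (length of at least 200 bases, at least 10 counts per library, no mitochondrial, predicted or pseudogene names), the 4 highest members and the members without a count of each list, every myogenic, bHLH and G1 regulator, the isoform pairs, and the 10 most variable genes of at least 10 TPM. Members and lists were chosen with earlier results of these data known. Alternatives changed the genes that share the sum, the division by length, the scaling, the threshold and the libraries. The values of 2 list members are not reported here.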

Additional observations from a re-analysis of the deposited data

How the results depend on the processing

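No paired analysis was possible because only 1 group was described and no result comes from a test. Between 9614 genes (at 5 TPM in all 3 libraries) and 15796 genes (at 1 TPM in at least 1 library) were called expressed, against 12929 in the report, and the other settings lay between these. The share of the 100 highest genes was 21.6% without division by length and 24.6% among protein-coding genes alone, against 41.04%. The share of ribosomal protein genes was 3.87% without division by length, 7.74% without genes under 200 bases and 9.57% among protein-coding genes, against 6.62%. Leaving out 1 library gave 13326 to 13402 expressed genes, 34.8% to 45.1% for the 100 highest genes, 6.14% to 7.13% for ribosomal proteins, 95.7 to 157 TPM for Myod1 and 42.9 to 68.9 TPM for Myf5. Under the other settings that divide by length, Myod1 stood between 113.0 (scaled by TMM factors) and 163.9 (protein-coding genes alone). Myf5 stood between 51.99 and 75.7 under the same settings, and all these values were within 1 SD of those reported. Without division by length the values were 74.8 for Myod1 and 38.8 for Myf5. These are counts scaled to library size and not TPM, so they cannot be compared with the TPM reported or its SD. Of the 100 highest coding genes by mean coding TPM, 48 were also among the 100 highest without division by length, where Fn1 moved from rank 194 to 13 and Myod1 from 1128 to 3165. By mean TPM and by mean coding TPM, 99 of the 100 were the same. Replicate 3 holds the fewest counts, so low genes are the least certain there.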
